A study of Homo sapiens with 6 samples.

Results

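The aminoacyl-tRNA synthetases and the scaffold proteins that hold some of them together were examined in TC28a2 cells treated with mocetinostat. Membership was set by gene symbol, with earlier results of these data known. Genes were taken in if the symbol was a single-letter amino acid code followed by ARS, with the endings used for mitochondrial and second copies. FARSA, FARSB, AIMP1, AIMP2, and EEF1E1 were taken in by name. This gave 39 of the 60623 genes in the count table. They comprised 9 cytosolic synthetases of class I, 9 of class II, 2 genes (GARS and KARS) that make both a cytosolic and a mitochondrial enzyme, 16 nuclear genes for mitochondrial synthetases, and 3 scaffold genes. The symbol pattern left out EPRS, the glutamyl-prolyl synthetase, and PARS2, the mitochondrial prolyl synthetase, which are given below as non-members. Symbols are those of the count table, in which AARS is the gene now called AARS1, and likewise for the other cytosolic enzymes, and TARSL2 is now called TARS3.

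Aminoacyl-tRNA synthetases join each amino acid to its transfer RNA, the step that fixes the genetic code before the ribosome reads it. Class I and class II enzymes have unrelated catalytic folds, and mitochondria mostly use separate enzymes that are made from nuclear genes and imported. In the cytosol, several synthetases are bound in the multisynthetase complex around the scaffold proteins AIMP1, AIMP2, and AIMP3 (the product of EEF1E1), and many cytosolic synthetase genes are known targets of ATF4, the transcription factor of the amino acid and integrated stress responses. Chondrocytes make and secrete large amounts of matrix protein and so depend on charged tRNA.

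TC28a2 cells are human chondrocytes immortalized for growth in culture. In each of 3 separate experiments they received 2 μM mocetinostat, an inhibitor of class I histone deacetylases, or its solvent DMSO, and their total RNA was sequenced 24 hours later after removal of ribosomal RNA. Both groups are the same line, with no genetic change between them, so treatment was the difference under study.

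The DMSO libraries held from 4873426 to 11031132 counts, and the mocetinostat libraries from 1619344 to 5089542, which makes low genes less precise after treatment. Levels are given as CPM, the counts scaled to library size with TMM factors. Of the chondrocyte markers, SOX9 stood at 106 CPM with DMSO, but COL2A1 was at 2.20 and ACAN at 4.72 CPM, CNMD was at 0 in every sample, and 6 of 12 were above 1 CPM in every DMSO sample. Of the 3 fibroblast-like collagen genes, COL1A1 was at 4544 and COL3A1 at 528 CPM with DMSO, but COL1A2 was at 2.51 CPM. Summed chondrocyte markers lay between 117 and 141 CPM with DMSO and between 262 and 304 CPM with mocetinostat. The 4 markers of leukocytes, endothelium, epithelium, and muscle summed to between 1.45 and 3.75 CPM with DMSO and to between 17.0 and 19.2 CPM with mocetinostat. Their part in the results was not tested.

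Promoter sequences from RefSeq on GRCh38.p14, running from 250 bases before to 50 bases after the transcription start, were matched for 31 of the 39 genes; among those with no entry were AARS2, DARS, LARS, TARSL2, VARS, VARS2, and YARS. They were searched on both strands for TGATGNAA, the C/EBP-ATF response element (CARE) to which ATF4 binds. It was found in 8 of the 31 genes, while 3.62% of all 35116 windows and 2.04% of the 15675 windows of genes tested here held it. The 8 stretches are shown because they mark the genes whose promoters carry the best known amino acid response element. Each is 30 bases on the strand of the gene, with the match in capitals, which reads TGATGNAA or its reverse complement.
AARS (chr16:70289675-70289704, minus strand): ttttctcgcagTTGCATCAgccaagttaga
CARS (chr11:3057407-3057436, minus strand): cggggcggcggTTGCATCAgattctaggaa
GARS (chr7:30594834-30594863, plus strand): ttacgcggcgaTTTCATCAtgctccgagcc
IARS (chr9:92293692-92293721, minus strand): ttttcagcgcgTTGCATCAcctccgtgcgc
MARS (chr12:57488053-57488082, plus strand): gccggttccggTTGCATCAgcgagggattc
NARS (chr18:57621804-57621833, minus strand): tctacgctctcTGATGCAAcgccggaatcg
TARS (chr5:33440956-33440985, plus strand): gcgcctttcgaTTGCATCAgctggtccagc
YARS2 (chr12:32756076-32756105, minus strand): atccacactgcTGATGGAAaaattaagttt

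In IARS, MARS, CARS, NARS, and TARS the match began within 14 bases of the RefSeq start, and in AARS and YARS2 it lay 187 and 197 bases before it. The gene bounds given below are those of GENCODE, whose starts can differ. In GENCODE AARS starts at 70289707 on the minus strand, so its stretch lies inside those bounds. Of the 8, all but YARS2 are cytosolic or shared synthetases on the list of known ATF4 targets. The E-box CACGTG was found in 5 of the 31 genes (AIMP2, CARS2, EARS2, IARS, and MARS2), beside 7.26% of all windows and 9.15% of those of genes tested, and the NRF1 core GCGCATGC in 2 (MARS2 and YARS2), beside 3.05% and 4.63%. The E-box and NRF1 matches share no base with a CARE match. A match is a description of these letters and does not show that a factor binds there.

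With DMSO, the synthetases spanned a wide range of levels when CPM were divided by the length of the canonical transcript in kilobases. KARS, the lysyl enzyme of both compartments, was the highest at 152 ± 7.0 CPM per kilobase (SD, n = 3). NARS (asparaginyl) at 94.5 ± 3.89, TARS (threonyl) at 93.1 ± 5.70, and IARS (isoleucyl) at 89.6 ± 9.11 followed, and these 3 did not differ beyond their spread. The median over the 20 cytosolic and shared synthetases was 67.3 CPM per kilobase and that over the 16 mitochondrial genes 13.1. The highest mitochondrial gene was IARS2 at 48.2 ± 1.74 and the lowest was VARS2, the mitochondrial valyl enzyme, at 0.332 ± 0.159. Of the VARS2 exon bases in GENCODE, 63.0% lie on the same strand in a noncoding gene that had 0 counts in every sample. Reads from the shared part may have been left unassigned by the authors' counting, which was not tested. After mocetinostat treatment, the medians were 46.9 and 8.76, and AARS, the alanyl enzyme, took the highest place at 107 ± 3.08 CPM per kilobase, above KARS at 92.1 ± 3.12.

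**Figure D1:**
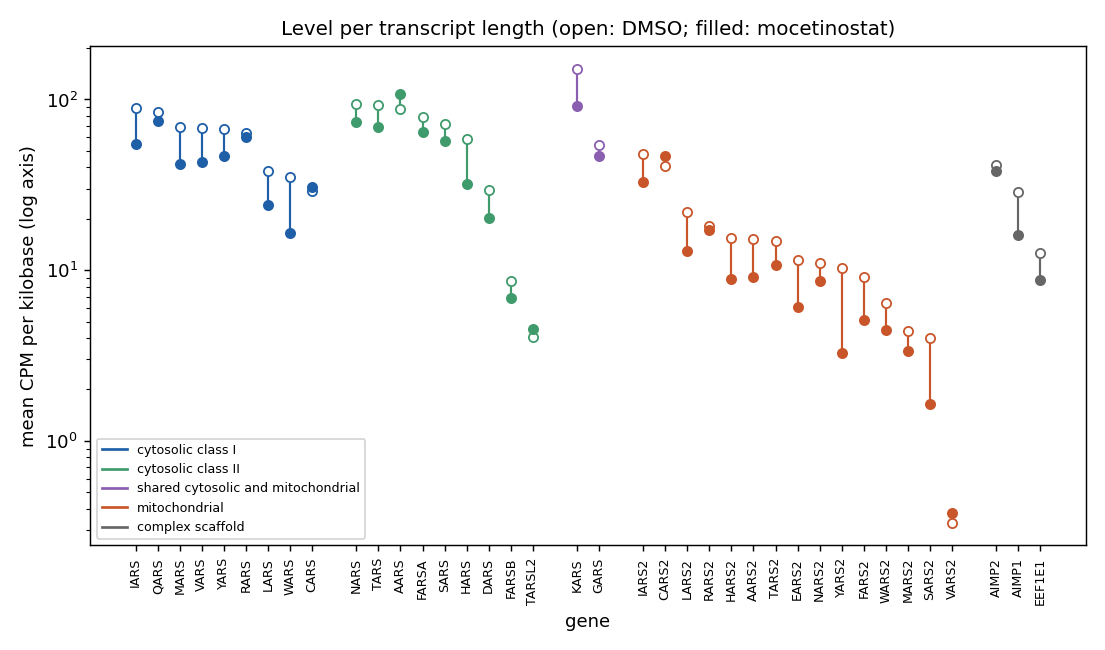
Mean CPM per kilobase of canonical transcript of 38 of the 39 genes on a log axis, ordered within each group by the DMSO level, with open points for DMSO and filled points for mocetinostat (n = 3 each). Most cytosolic genes lie above most mitochondrial genes in both conditions, and AARS is among the few whose filled point lies above the open one.

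The comparison asked how these genes differed between mocetinostat-treated and DMSO-treated cells. Most synthetase mRNAs were lower after treatment, by modest amounts, and a single gene, AARS, was higher. By the quasi-likelihood test of edgeR, adjusted over all genes with the Benjamini-Hochberg procedure, 26 of the 38 genes tested were lower at an adjusted p under 0.05, beside 31.4% of all genes tested, and 1 was higher, beside 32.9%. At the study's thresholds, which add an absolute log2 fold change over 1, 3 were downregulated genes (DRGs), beside 8.18% of all genes, and 0 were upregulated, beside 20.2%. In CPM, every mocetinostat sample lay below every DMSO sample in 27 of the genes, beside 32.8% of all genes tested, and above in 1, beside 33.7%. The median log2 fold change over the genes tested was -0.54, which is 68.7% of the DMSO level, while it was -0.002 over all 13966 genes. VARS2 did not pass the expression filter, having 19, 6, and 4 counts in the DMSO samples and 7, 3, and 2 counts in the treated samples. The exon overlap given above applies to these counts too.

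These values are relative to the other genes in each library. Fewer cells and less RNA per cell cannot be told apart in such bulk samples. GAPDH, often used for scaling, had itself a log2 fold change of -0.53 (SE 0.06). Scaling to GAPDH moved the median of all genes up by 0.54. Then 4 synthetases (HARS, WARS, YARS2, and SARS2) remained lower at an adjusted p under 0.05 and 9 genes were higher. At the study's thresholds 2 of the 38 were downregulated and 0 upregulated, beside 284 and 4425 of all 13966 genes. Fitting without an expression filter moved the median of all genes by -0.25, and 33 of the 39 were then lower and 0 higher. At the study's thresholds 10 were downregulated and 0 upregulated, beside 2120 and 3201 of 40504 genes. The share of all genes at an adjusted p under 0.05 alone is not given for these 2 settings. The counts at that rule therefore cannot be set beside those of all genes. With TMM, 34 of the 38 genes tested lay below the median of all genes, a position that GAPDH scaling leaves where it was because it moves every gene by about the same amount. In libraries thinned to the smallest 32 of 38 lay below it, and 30 of 35 did when each sample had to hold at least 10 counts.

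**Figure D2:**
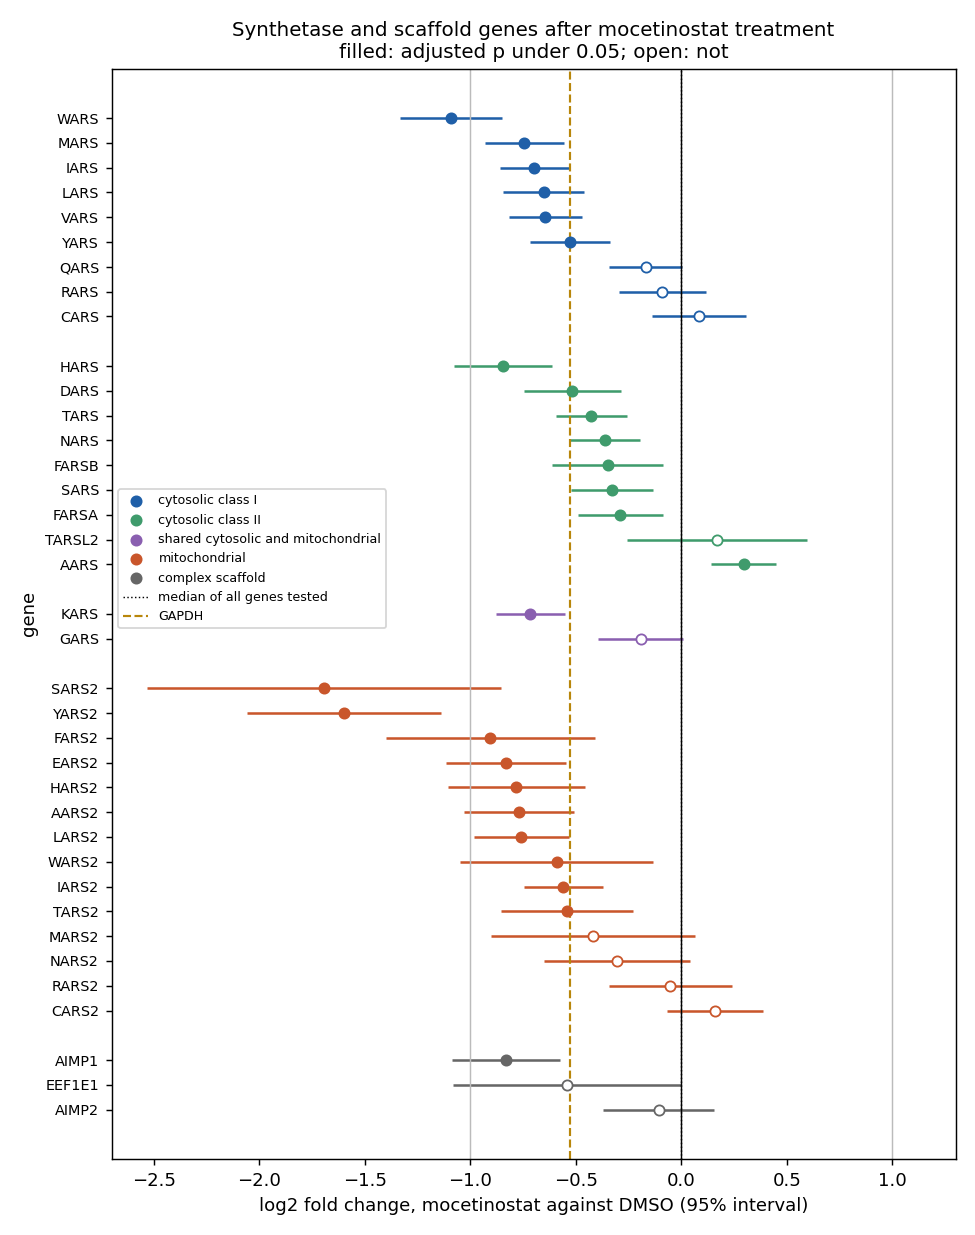
Log2 fold change (mocetinostat against DMSO, TMM scaling) of 37 of the 38 genes tested, with 95% intervals, by group, filled where the adjusted p was under 0.05. Grey lines mark a log2 fold change of 1 in either direction, the dotted line near 0 marks the median of all genes, and the dashed line marks GAPDH at -0.53. Values to the right of the dashed line would turn positive, or nearly so, if GAPDH were set to 0.

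Of the 9 class I cytosolic genes, 6 fell and 3 did not pass the test, and the median log2 fold change was -0.64. WARS, the tryptophanyl synthetase, which interferon is known to induce, changed the most. Its gene, ENSG00000140105, lies on the minus strand of chromosome 14 from 100333790 to 100376805 (GRCh38). It was at 96.3, 85.6, and 98 CPM in DMSO replicates 1, 2, and 3 and at 44.6, 42.1, and 44.3 CPM with mocetinostat. The mocetinostat samples lay close together at less than the lowest DMSO sample, and the groups did not overlap. WARS was a DRG with a log2 fold change of -1.09 (SE 0.12, adjusted p = 3.86e-12), or 47.0% of the DMSO level, and it was short of the fold threshold with GAPDH scaling (-0.55) and when libraries were thinned to the smallest (-0.97).

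The other class I genes that fell were MARS (methionyl, -0.74), IARS (isoleucyl, -0.70), LARS (leucyl, which also senses leucine for mTORC1, -0.65), VARS (valyl, -0.64), and YARS (tyrosyl, -0.53), and of these YARS was at 0.01 with GAPDH scaling. QARS (glutaminyl, -0.17) and RARS (arginyl, -0.09) did not pass the test. QARS passed it without DMSO replicate 1 (-0.23, adjusted p = 0.0115). CARS, the cysteinyl enzyme, had the highest fold change of the class. It was at 82.1, 72.5, and 83.0 CPM with DMSO and 80.7, 83.7, and 89.1 CPM with mocetinostat. Its groups overlapped, and its log2 fold change of 0.08 (SE 0.11, adjusted p = 0.528) did not pass the test.

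Of the 9 class II cytosolic genes, 7 fell, 1 rose, and 1 did not pass the test, with a median of -0.35. HARS, the histidyl synthetase, had the lowest value. It was at 99.6, 126, and 116 CPM with DMSO and at 66.2, 49.6, and 70.0 CPM with mocetinostat. The groups were well apart, with replicate 2 the highest DMSO sample and the lowest mocetinostat sample. The log2 fold change was -0.84 (SE 0.12, adjusted p = 3.07e-09).

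AARS (ENSG00000090861, minus strand of chromosome 16 from 70251983 to 70289707) went the other way. It was at 289, 290, and 324 CPM with DMSO and at 375, 357, and 375 CPM with mocetinostat. Every mocetinostat sample was above every DMSO sample, and the DMSO samples spread more than the treated ones. The log2 fold change was 0.30 (SE 0.08, adjusted p = 0.000722), or 123% of the DMSO level. It was positive in every setting tried, between 0.24 and 0.33 with each sample left out in turn, 0.82 with GAPDH scaling, and 0.04 without an expression filter, where it did not pass the test (adjusted p = 0.728).

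DARS (aspartyl, -0.52), TARS (threonyl, -0.43), NARS (asparaginyl, -0.36), and SARS (seryl, -0.33) fell, as did the subunits of the phenylalanyl enzyme, FARSB (-0.35) and FARSA (-0.29). With GAPDH scaling all 6 were above 0, between 0.02 for DARS and 0.24 for FARSA. In libraries thinned to the smallest, DARS (-0.29, adjusted p = 0.0687), FARSB (-0.12, adjusted p = 0.539), and FARSA (-0.21, adjusted p = 0.110) did not pass the test. FARSB did not pass it in DESeq2 (-0.38, adjusted p = 0.0726) or with at least 10 counts in every sample (-0.27, adjusted p = 0.0700) either. It also did not pass the test without DMSO replicate 1 (-0.24, adjusted p = 0.136) or mocetinostat replicate 1 (-0.34, adjusted p = 0.0745), nor FARSA without DMSO replicate 3 (-0.20, adjusted p = 0.109) or mocetinostat replicate 1 (-0.28, adjusted p = 0.0532). TARSL2, a second threonyl synthetase of the cytosol, was at 0.17 (SE 0.22) and did not pass the test.

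**Figure D3:**
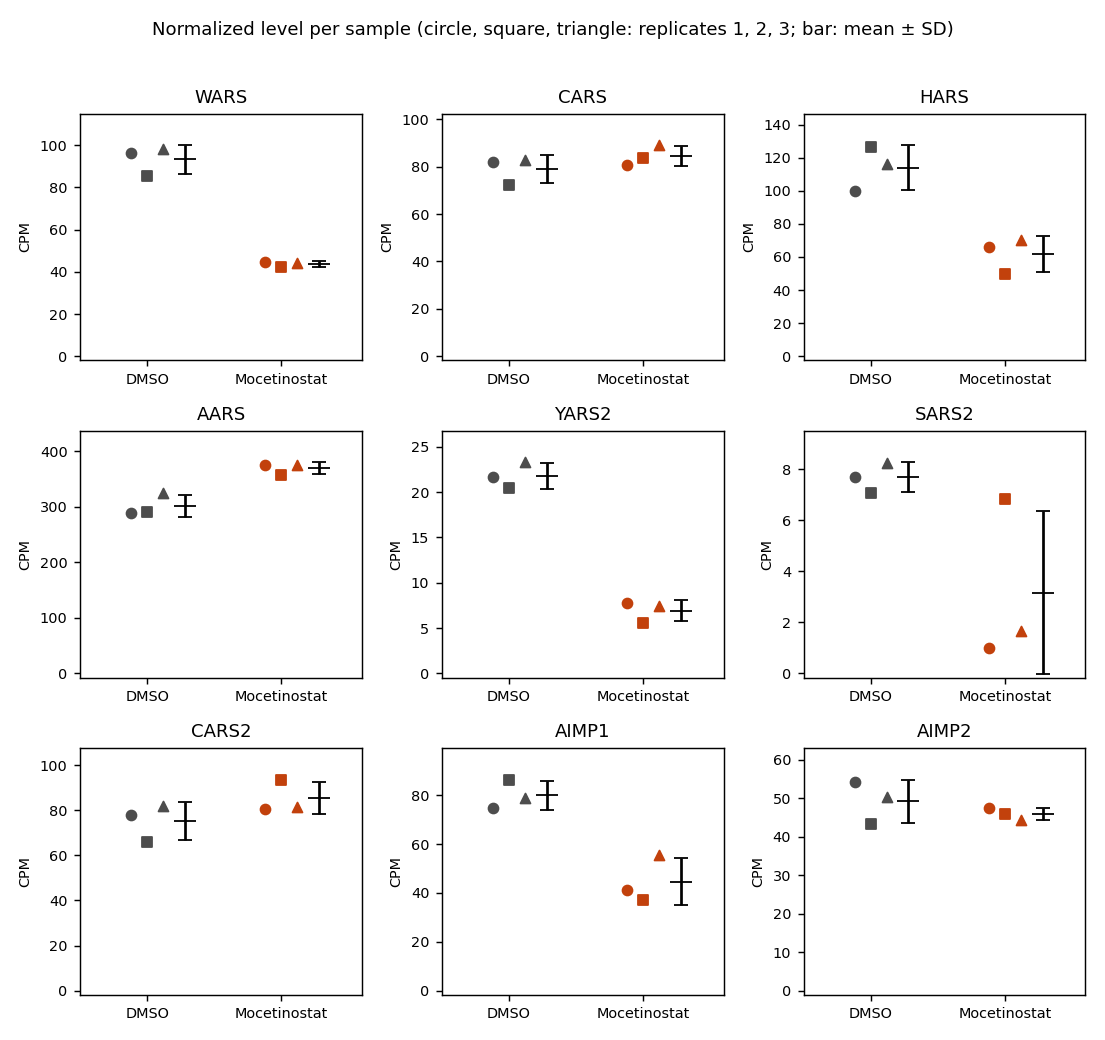
TMM-normalized CPM in each of the 6 samples for the genes with the highest and lowest fold change of each group and the 3 DRGs. Circles, squares, and triangles are replicates 1, 2, and 3, and bars give the mean ± SD (n = 3). WARS, HARS, YARS2, and AIMP1 separate the conditions downward and AARS upward, CARS, CARS2, and AIMP2 overlap, and in SARS2 mocetinostat replicate 2, at 6.82 CPM, lies just under the DMSO samples.

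The genes that serve both compartments differed from each other. KARS was at 317, 298, and 290 CPM with DMSO and at 190, 178, and 182 CPM with mocetinostat, far below. Its log2 fold change was -0.71 (SE 0.08, adjusted p = 1.35e-11). GARS, the glycyl enzyme, was at 135, 120, and 141 CPM with DMSO and at 132, 112, and 99.5 CPM with mocetinostat. The groups overlapped, and the log2 fold change of -0.19 (SE 0.10, adjusted p = 0.0975) did not pass the test, although it did without DMSO replicate 2 (-0.29, adjusted p = 0.0301) or mocetinostat replicate 1 (-0.34, adjusted p = 0.0185).

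Of the 15 mitochondrial genes tested, 11 fell, 0 rose, and 4 did not pass the test, and their median change on the log2 scale was -0.70. YARS2, the mitochondrial tyrosyl synthetase, and SARS2, the seryl enzyme, were DRGs. YARS2 (ENSG00000139131) lies on chromosome 12 from 32727490 to 32755897 and SARS2 (ENSG00000104835) on chromosome 19 from 38915266 to 38930763, both on the minus strand. YARS2 was at 21.7, 20.4, and 23.3 CPM with DMSO and at 7.73, 5.58, and 7.46 CPM with mocetinostat. All treated samples were far below the DMSO samples. The log2 fold change was -1.60 (SE 0.23, adjusted p = 1.15e-08), or 33.0% of the DMSO level. YARS2 remained a DRG in each of the 13 alternative settings in which it was tested.

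SARS2 rested on few reads. It had 85, 34, and 56 counts in the DMSO samples and 5, 11, and 4 counts in the treated samples, or 7.69, 7.08, and 8.25 CPM against 0.991, 6.82, and 1.66 CPM. Replicates 1 and 3 with mocetinostat were far below DMSO, while replicate 2, from the smallest library, was barely below it. The log2 fold change was -1.69 (SE 0.43, adjusted p = 0.000409). It was -2.66 without mocetinostat replicate 2, and without mocetinostat replicate 1 it was -1.02 and did not pass the test (adjusted p = 0.0568). Of its exon bases in GENCODE, 48.2% lie on the same strand in a readthrough gene, which had 0 to 2 counts in each sample, so reads from the shared part may have been left unassigned or split by the authors' counting.

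FARS2 (phenylalanyl, -0.90), EARS2 (glutamyl, -0.83), HARS2 (histidyl, -0.78), AARS2 (alanyl, -0.77), LARS2 (leucyl, -0.76), WARS2 (tryptophanyl, -0.59), IARS2 (isoleucyl, -0.56), and TARS2 (threonyl, -0.54) were among those that fell. With GAPDH scaling these 8 were between -0.36 for FARS2 and -0.004 for TARS2. HARS2 did not pass the test in thinned libraries (-0.43, adjusted p = 0.0801). FARS2 crossed the fold threshold without DMSO replicate 3 (-1.005) or mocetinostat replicate 2 (-1.05). WARS2 did not pass the test without DMSO replicate 2 (-0.49, adjusted p = 0.0940), mocetinostat replicate 1 (-0.51, adjusted p = 0.130), or mocetinostat replicate 3 (-0.41, adjusted p = 0.157), nor TARS2 without mocetinostat replicate 1 (-0.35, adjusted p = 0.0938). The groups of WARS2 overlapped, and WARS2 also did not pass in DESeq2 (-0.60, adjusted p = 0.138) or thinned libraries (-0.56, adjusted p = 0.116). With at least 10 counts in every sample it did not pass either (-0.51, adjusted p = 0.0510). MARS2 (-0.42), NARS2 (-0.31), and RARS2 (-0.05) did not pass the test. CARS2, the mitochondrial cysteinyl enzyme, was at 78.0, 65.8, and 81.9 CPM with DMSO and at 80.7, 93.6, and 81.6 CPM with mocetinostat. The groups overlapped, and the log2 fold change of 0.16 (SE 0.12, adjusted p = 0.224) did not pass the test.

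Among the scaffold genes, AIMP1 fell. It was at 74.6, 86.4, and 78.7 CPM with DMSO and at 41.2, 37.2, and 55.5 CPM with mocetinostat, with no overlap and mocetinostat replicate 3 the highest of the treated samples. Its log2 fold change was -0.83 (SE 0.13, adjusted p = 7.83e-08), and -1.01, past the fold threshold, without that sample. AIMP2 was at 54.4, 43.3, and 50.3 CPM with DMSO and at 47.6, 45.9, and 44.3 CPM with mocetinostat. The treated samples lay inside the range of the controls, and the log2 fold change was -0.11 (SE 0.13, adjusted p = 0.495). The exons of AIMP2 overlap those of EIF2AK1 on the other strand over 29.1% of their bases, and whether the counting used strand is not given in the sources used here.

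EEF1E1 spread widely, at 15.3, 15.8, and 8.40 CPM with DMSO and at 6.94, 5.58, and 14.9 CPM with mocetinostat, so that DMSO replicate 3 and mocetinostat replicate 3 each lay among the other condition's samples. Its log2 fold change of -0.54 (SE 0.28, adjusted p = 0.0793) did not pass the test. It passed without DMSO replicate 3 (-0.81, adjusted p = 0.00576) and without mocetinostat replicate 3 (-1.02, adjusted p = 0.00285).

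The 7 synthetases of the multisynthetase complex that the symbol pattern takes in (DARS, IARS, KARS, LARS, MARS, QARS, and RARS) had a median log2 fold change of -0.65, and 5 of them fell. EPRS, the bifunctional enzyme that belongs to the same complex but is no member here, was at -0.06 (SE 0.09, adjusted p = 0.587). Of its proteins, QARS, RARS, AIMP2, and EEF1E1 did not pass the test either, while MARS, KARS, IARS, LARS, DARS, and AIMP1 fell by 0.52 to 0.83 on the log2 scale. In the 13 cytosolic or shared synthetases outside the complex, the median was -0.35, 9 fell, and 1 rose. PARS2, the other synthetase that the pattern left out, was at 0.77 (SE 0.31, adjusted p = 0.0257), but its groups overlapped, and it did not pass the test in DESeq2 (adjusted p = 0.151), without a filter (adjusted p = 0.254), or without DMSO replicate 1 (adjusted p = 0.0847) or 2 (adjusted p = 0.0691) or mocetinostat replicate 1 (adjusted p = 0.149) or 2 (adjusted p = 0.0828).

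Separate cytosolic and mitochondrial genes exist here for 15 amino acids, of which 14 had both genes tested. The cytosolic gene was the less reduced in 7 pairs and the more reduced in 7, and the median difference in log2 fold change (cytosolic minus mitochondrial) was 0.03. The largest differences were those of serine (1.37), tyrosine (1.07), and alanine (1.06), all with the mitochondrial gene lower. The count of the cytosolic gene was divided by that of its partner within each library, a ratio that no scaling factor changes.

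For alanine, AARS had 4.36, 3.74, and 4.27 times the counts of AARS2 with DMSO and 9.01, 6.86, and 10.1 times with mocetinostat. For tyrosine, YARS had 7.72, 8.21, and 6.68 times the counts of YARS2 with DMSO and 13.8, 21.7, and 15.6 times with mocetinostat. In both pairs every treated sample exceeded every control, and these were the only 2 of the 15 pairs whose ratios did not overlap. An exact two-sided permutation test gave p = 0.1 for each, the smallest that 3 against 3 samples allow, and an adjusted p of 0.6 over the 15 pairs. For serine, SARS had 17.7, 19.0, and 17.2 times the counts of SARS2 with DMSO and 108.8, 15.4, and 70.2 times with mocetinostat, where replicate 2 fell below the controls and the exact p was 0.4.

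SARS itself was at 136, 135, and 142 CPM with DMSO and at 108, 105, and 116 CPM with mocetinostat. YARS was at 168, 168, and 156 CPM with DMSO and at 107, 121, and 116 CPM with mocetinostat. AARS2 was at 66.3, 77.5, and 76.0 CPM with DMSO and at 41.6, 52.1, and 37.3 CPM with mocetinostat. None of these 3 genes overlapped between conditions, and each was lower after treatment, except that SARS and YARS were above 0 with GAPDH scaling (0.21 and 0.01).

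The other pairs described here were closer. The mitochondrial gene was the lower by 0.62 for phenylalanine (FARSA against FARS2), 0.11 for threonine, and 0.11 for leucine. For tryptophan the cytosolic gene was the lower, with a difference of -0.50, as it was for methionine (-0.33), isoleucine (-0.14), cysteine (-0.08), histidine (-0.06), asparagine (-0.05), and arginine (-0.04). The cysteine and arginine genes were the only pairs in which neither partner passed the test. For valine the ratio could be formed but rested on the few counts of VARS2.

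**Figure D4:**
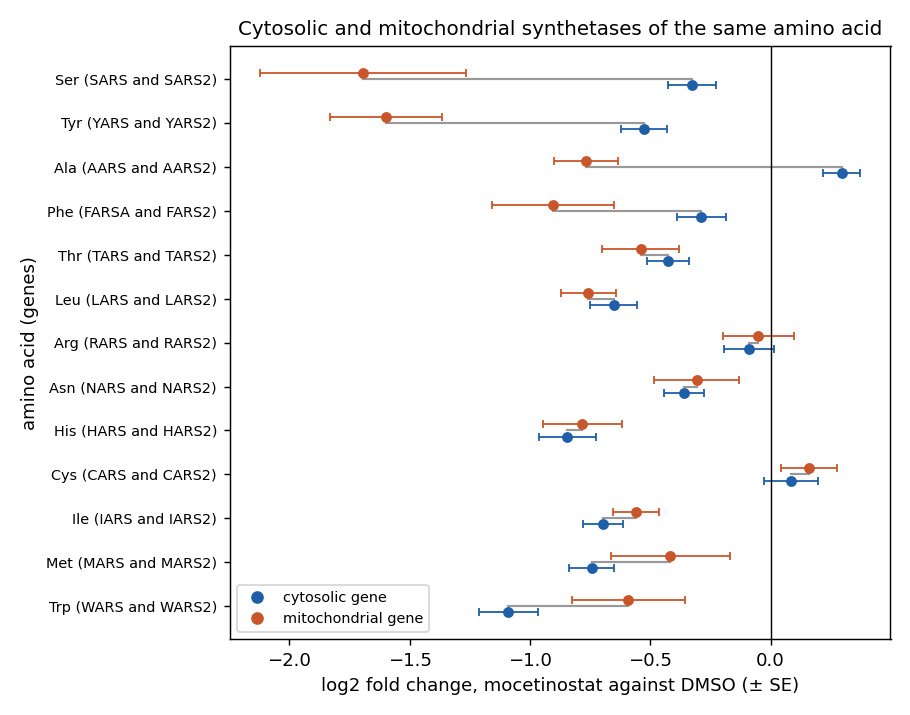
Log2 fold change ± SE (TMM scaling) of the cytosolic and the mitochondrial synthetase of each of 13 amino acids, ordered by the difference between them. Serine, tyrosine, and alanine show the widest gaps, and histidine, asparagine, arginine, and cysteine partners lie within 0.1 of each other. GAPDH scaling would move all points to the right by about 0.54.

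As a share of all counts, the 39 genes took 0.452%, 0.438%, and 0.432% with DMSO and 0.329%, 0.322%, and 0.339% with mocetinostat, with no overlap and a ratio of means of 0.749. The ratio was 0.762 for the cytosolic and shared genes and 0.695 for the mitochondrial genes. Mitochondrial counts were 21.8%, 22.2%, and 22.2% of the cytosolic ones with DMSO and 19.3%, 21.2%, and 19.9% with mocetinostat, lower in every treated sample but by a small amount.

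Several of these genes share a start region with a gene that runs the other way. HARS and HARS2 begin 107 bases apart on chromosome 5 and had log2 fold changes of -0.84 and -0.78. Their count ratio was 2.76 in the lowest library and 3.30 in the highest. UBFD1, which starts 10 bases from EARS2, was at -0.86 beside -0.83, and LYRM4, 94 bases from FARS2, at -1.25 beside -0.90. MRPS12, 181 bases from SARS2, was at -0.31 (adjusted p = 0.119) beside -1.69, and WDR25, 387 bases from WARS, at 0.10 (adjusted p = 0.822) beside -1.09. DDX19B, 44 bases from AARS, was at 0.23 (adjusted p = 0.383) beside 0.30. ORC3, 39 bases from RARS2, was at -0.35 (adjusted p = 0.0407) beside -0.05, and PMS2, 125 bases from AIMP2, at -0.31 (adjusted p = 0.175) beside -0.11. ING1, 867 bases from CARS2, was at 0.20 (adjusted p = 0.166) beside 0.16, and TERF2IP, 870 bases from KARS, at -0.51 (adjusted p = 6.20e-05) beside -0.71. These neighbours lie within 1000 bases, and the reads of overlapping first exons cannot be assigned to a gene with certainty without strand.

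Of the 11 synthetases on the list of known ATF4 targets, 8 fell, 1 rose (AARS), and 2 did not pass the test (CARS and GARS), and the median log2 fold change was -0.43. The 9 cytosolic or shared genes outside that list had a median of -0.35. The 8 genes with a CARE in the window, printed above, ranged from -1.60 (YARS2) to 0.30 (AARS), with a median of -0.39, beside a median of -0.54 in the 23 genes with a window and no CARE. All of the 8 but YARS2 are cytosolic or shared, while the 23 include many mitochondrial genes. The median of all 20 cytosolic and shared genes was also -0.39, and that of the mitochondrial genes was -0.70. Whether the CARE or the compartment goes with the difference was not tested. AARS, which rose, and CARS and GARS, which did not pass the test, carry it, and so do MARS, IARS, NARS, TARS, and YARS2, which fell.

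In the wider ATF4 amino acid response, 11 of 25 genes rose, beside 32.9% of all genes tested, and 7 fell, beside 31.4%. The median log2 fold change was 0.32. At the study's thresholds 2 of the 25 were upregulated, beside 20.2% of all genes, and 3 were DRGs, beside 8.18%. ATF4 itself was at 0.06 (SE 0.08, adjusted p = 0.502). VLDLR, a lipoprotein receptor, at 2.41 (SE 0.19) and the stress transcription factor ATF3 at 1.18 (SE 0.16) were upregulated, and the transcription factor ATF5 at -2.83 (SE 0.19), the stress protein gene NUPR1 at -2.37 (SE 0.24), and SHMT2, which makes glycine in mitochondria, at -1.21 (SE 0.09) were DRGs. With GAPDH scaling SHMT2 was at -0.68, short of the fold threshold, and ATF3 was short of it without a filter (0.93). CEBPB, whose product pairs with ATF4, was just short of it at 0.99 (SE 0.09) and past it in 7 alternatives, at 1.01 to 1.51.

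Among genes that act beside the synthetases, each list held more genes that fell than genes that rose, while 31.4% of all genes tested fell and 32.9% rose. At the study's thresholds 8.18% of all genes were DRGs and 20.2% were upregulated. Of 10 genes for other steps of tRNA charging, 4 fell and 1 rose, and the median was -0.42. GATB (-1.12, SE 0.19) and QRSL1 (-1.31, SE 0.18), subunits of the mitochondrial amidotransferase that completes glutaminyl-tRNA, were DRGs, although GATB was at -0.71 in libraries thinned to the smallest. Of 13 genes for tRNA processing and export, 7 fell and 0 rose, and the median was -0.41. The DRGs were XPOT (-1.37, SE 0.09), the tRNA exporter, TRNT1 (-1.05, SE 0.18), which adds the CCA end, and RPP30 (-1.05, SE 0.17), a subunit of RNase P. TRNT1 was short of the fold threshold without mocetinostat replicate 1 (-0.90) and RPP30 without DMSO replicate 1 (-0.90) and in thinned libraries (-0.89), and both were at -0.97 when each sample had to hold at least 10 counts.

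Of 24 genes of RNA polymerase III and its factors, which transcribe tRNA genes, 15 fell and 3 rose, and the median was -0.45. At the study's thresholds 6 were DRGs, beside 8.18% of all genes, and 0 were upregulated, beside 20.2%. The 3 with the smallest p were GTF3C6 (-2.53, SE 0.18), a subunit of TFIIIC, BDP1 (-1.05, SE 0.11), a subunit of TFIIIB, and POLR3E (-1.19, SE 0.13), a polymerase subunit. BDP1 was at -0.96 without mocetinostat replicate 2 and at -0.97 with that minimum of 10 counts. Of 7 genes that deliver charged tRNA to the ribosome, 5 were tested. EEF1A1 (-0.76, SE 0.06), EEF1B2 (-0.68, SE 0.09), and the mitochondrial factor TUFM (-0.44, SE 0.08) fell and EEF1A2 (0.95, SE 0.09) rose, and the median was -0.44. TSFM did not pass the filter. EEF1G was at 0 in every sample, which does not show that its mRNA was absent. Whether its reads were left unassigned by the counting was not tested. With GAPDH scaling the DRGs named here for charging, processing, and export stayed below 0, as did BDP1 and POLR3E, but short of the fold threshold; GTF3C6 stayed a DRG, and TUFM was at 0.09.

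**Figure D5:**
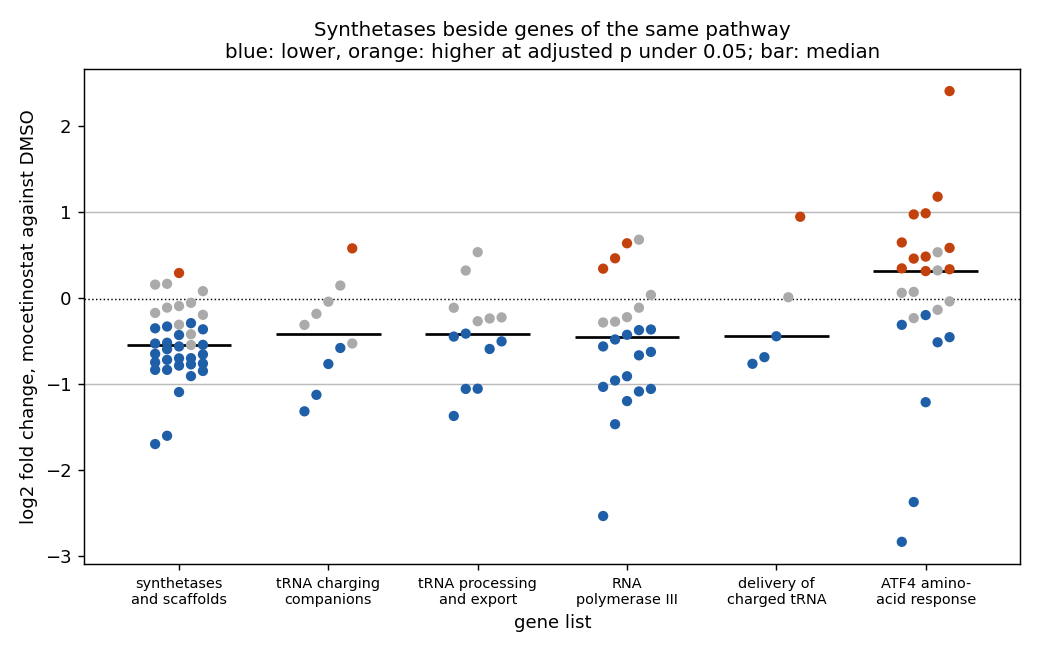
Log2 fold change (mocetinostat against DMSO, TMM scaling) of the 38 synthetase and scaffold genes tested and of 5 lists of genes from the same pathway, with medians as bars, the median of all genes as a dotted line, and grey lines at a log2 fold change of 1 in either direction. The medians of the synthetases and of the tRNA lists lie between -0.54 and -0.41, and that of the ATF4 list at 0.32. With GAPDH scaling the median of all genes would lie 0.54 higher.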

How the data were processed

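RNA-Seq counts from 3 DMSO-treated and 3 mocetinostat-treated TC28a2 samples were used. Per the paper's methods and the labels, the authors trimmed adapters, removed ribosomal reads, aligned single reads to GRCh38 (Ensembl 98) with STAR 2.6.1d, and assigned them to genes with featureCounts 1.6.4. The deposited values were whole raw counts per gene. The strand setting and the treatment of reads that map to several genes are not given in the sources used here.

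In R 4.3.3, edgeR 4.0.16 was run on these counts: filterByExpr at a minimum count of 10 passed 13966 of 60623 genes, TMM gave the scaling, and treatment was tested by quasi-likelihood with Benjamini-Hochberg adjustment over the genes passed. The biological coefficient of variation was 9.30%, and replicates differed by more than sampling noise (chi-square per degree of freedom, 1.91 to 8.20). Depth was 1619344 to 11031132 counts per sample. Intervals cover 95%.

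The genes and lists were chosen with earlier results of these data known. Values per sample are given for DRGs, for the highest and lowest fold change of each group, and for the 3 amino acids whose genes differed most, with KARS, GARS, and EEF1E1 added after their values were seen. In the other lists, called genes were named, or the 3 with the smallest p where more than 5 were called. CEBPB, just short of a threshold, was added after its values were seen. Levels per kilobase used the length of the Ensembl canonical transcript in GENCODE release 44, to which 99.5% of genes were matched by identifier. Alternatives were DESeq2 1.42.0, RLE size factors, library size only, GAPDH scaling, no filter, at least 10 counts in every sample, thinned libraries, a replicate block, and each sample left out in turn. Simulated counts with known changes were used to test the edgeR fit at its main settings and the DESeq2 fit, but not the other alternatives. Python 3.11.15, pandas 2.3.3, and matplotlib 3.10.9 made the summaries and figures. The single values of 1 gene are not reported here, although it is part of the counts, medians, and shares.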

Additional observations from a re-analysis of the deposited data

How the results depend on the processing

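With RLE size factors, with library size only, and with the replicate block, every gene among the 38 tested kept its direction and its side of the threshold. With the replicate block 3 of them were DRGs, beside 1133 of all 13966 genes. At an adjusted p under 0.05 alone 26 were lower and 1 was higher, and the share of all genes is not given. The median log2 fold change of the 38 was then -0.53. The replicate numbers did not pair the samples: the correlations of same-numbered samples' deviations from their group means were 0.008, 0.012, and -0.016.

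Scaling to GAPDH moved the most values. It left 4 genes lower and 9 higher at an adjusted p under 0.05, a median of -0.00095 over all genes of the family, 0.14 over the cytosolic and shared genes, and -0.16 over the mitochondrial genes. At the study's thresholds 284 of all 13966 genes were then DRGs and 4425 were upregulated, beside 2 and 0 of the family. The share of all genes at an adjusted p under 0.05 alone is not given for this scaling. Genes below 0 with TMM were then above it, with log2 fold changes of 0.0082 for YARS, 0.21 for SARS, 0.020 for DARS, 0.13 for MARS2, 0.19 for FARSB, 0.36 for QARS, 0.11 for TARS, 0.45 for RARS, 0.0024 for EEF1E1, 0.49 for RARS2, 0.43 for AIMP2, 0.34 for GARS, 0.23 for NARS2, 0.17 for NARS, and 0.24 for FARSA. This scaling shifts every gene by about the same amount, and the median of the family stayed 0.53 below that of all genes.

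Without a filter, 10 genes were DRGs and 0 were higher, the medians were -0.79, -0.65, and -0.95 over the family, the cytosolic, and the mitochondrial genes, and CARS (-0.17), CARS2 (-0.091), and TARSL2 (-0.081) were below 0. With at least 10 counts in every sample, 35 were tested and 1 (WARS) was a DRG, the medians were -0.45, -0.31, and -0.51, and RARS2 was at 0.028. Thinning every library to the smallest gave 2 DRGs, 21 lower genes (WARS2, DARS, FARSB, HARS2, and FARSA no longer passed), and 2 higher genes, AARS and CARS2, medians of -0.42, -0.29, and -0.51, and values of 0.0099 for MARS2 and 0.21 for AIMP2. In DESeq2 the cytosolic median was -0.43, 3 were DRGs, and 24 were lower. The cause of these differences was not tested. Among all genes, 2120 of 40504 were DRGs without a filter and 704 of 10876 with at least 10 counts in every sample. In thinned libraries 865 of 11599 were, and in DESeq2 1178 of 20620. For these settings the share of all genes lower or higher at an adjusted p under 0.05 alone is not given.

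Leaving out single samples gave 2 to 5 DRGs and 22 to 26 lower genes. Among all genes, 1173 to 1267 were DRGs in these fits, of 14281 to 14797 tested. The share of all genes lower at an adjusted p under 0.05 alone is not given for them. The lower ones were 22 without mocetinostat replicate 1, and the 5 DRGs were found without mocetinostat replicate 3. The medians ranged from -0.60 to -0.50 over the family, from -0.46 to -0.41 over the cytosolic genes, and from -0.76 to -0.57 over the mitochondrial genes. RARS ranged from -0.21 to 0.048 (above 0 without DMSO replicate 1), CARS from -0.0039 (without DMSO replicate 2) to 0.11, and RARS2 from -0.24 to 0.046 (above 0 without mocetinostat replicate 2). The treated samples held the fewest counts for VARS2, SARS2, YARS2, FARS2, and EEF1E1, and fold changes of genes near 10 counts per library rest on few reads.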
